A study of Rattus norvegicus with 8 samples.

Results

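The 10 genes described here encode tubulins and proteins that bind tubulin or microtubules: the beta-tubulins Tubb3, Tubb2a and Tubb2b, the alpha-tubulins Tuba1a and Tuba1c, the microtubule-associated proteins Mapt, Map2, Map1a and Map1b, and the stathmin Stmn2. They were chosen by name, taking every spot on the arrays that is not a control and whose gene name is on that list. They are 10 of 26334 gene names on the array, with 13 probes on 22 spots of each array. After dim spots and spots with an outlier mark were left out, 12 of the probes on 19 spots remained, and all 10 genes were among the 16307 that passed.

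The study compared retinas of female Lister Hooded rats, 8 weeks old, after a crush of the right optic nerve (ONC) with retinas of sham-operated rats (CTR). Both groups were anesthetized with xylazine at 10 mg/kg and ketamine at 60 mg/kg and had the nerve exposed within the orbit, and both were killed 2 weeks later. The ONC group had forceps closed on the nerve 3 mm behind the eye, where they were held shut during 10 s, and the CTR group had the same surgery with the forceps kept open. Total RNA of 4 retinas per group was labeled with Cy3 or Cy5 and hybridized onto 4 Agilent arrays of 44254 spots, so that the 8 channels are the samples. Whole retina was measured, and RNA of every retinal cell type is mixed in each channel.

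Microtubules are hollow polymers of alpha- and beta-tubulin pairs that give axons and dendrites their shape and serve as tracks for transport. Microtubule-associated proteins bind along them and stabilize or space them, whereas stathmins bind free tubulin pairs and favor disassembly. Axons of retinal ganglion cells (RGCs), which form the optic nerve, are rich in such proteins, and beta-III-tubulin is widely used to stain RGCs in the retina.

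The depth of an array reading is its brightness over background. Among channels labeled CTR, the median spot was dimmest in CTR3, at 446.6 over a background of 55.0, and brightest in CTR2, at 626.0 over 56.5. CTR1 (468.2 over 56.0) and CTR4 (468.1 over 55.0) lay between. Among those labeled ONC, ONC4 was dimmest, at 218.1 over 26.0, and ONC2 brightest, at 494.7 over 29.5, with ONC3 (331.9 over 28.0) and ONC1 (337.3 over 29.0) between them. None of the readings of the 10 genes was saturated, and the lowest stood at 2.92 times its background. The number of arrays limits the precision.

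The sources differ on what each channel holds. According to the deposited labels, an array pairs a sham and a crush retina that share a number, and dye follows group throughout, Cy5 for CTR and Cy3 for ONC. An effect of the crush and an effect of the dye therefore cannot be told apart. In the account of the methods, an array instead carries a pair from 1 group, and each group has retinas in both dyes. The accounts give the same dye for CTR2, CTR4, ONC1 and ONC3 only. Each channel was read by its label, and directions for ONC against CTR are directions between labels.

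RGC markers as a set do not divide by the labels. Of 15 markers listed, 14 were on the array and 12 passed the spot filter, while Pou4f3 and Ebf3 did not. Their summed signal, relative to the median spot of each channel, came to 9.10 (CTR1), 34.3 (CTR2), 9.08 (CTR3) and 9.77 (CTR4) for the sham labels and to 39.1 (ONC1), 36.5 (ONC2), 40.0 (ONC3) and 9.85 (ONC4) for the crush labels. CTR2 thus sits with 3 ONC channels and ONC4 with 3 CTR channels. Arrays 1 and 3 each hold a high and a low channel, so the markers do not follow the arrays of the methods' account either, in which an array holds retinas of the same condition. Sncg, gamma-synuclein, was the brightest gene of the list. By the labels, ONC was the higher group for 11 of the 12 markers. Their median log2 fold change was 1.14, against -0.01 over all genes tested. The study gives RGC markers as lower in ONC, the opposite of this direction between the labels, and it counted fewer RGCs in ONC retinas. Only Isl1, a homeobox factor of RGCs and of some bipolar and amacrine cells, passed the test of limma. Its levels ran from 0.73 to 0.98 in CTR and from 1.48 to 1.51 in ONC, so Isl1 divided by the labels, unlike the summed signal. In whole retina, fewer cells of a type and less RNA per cell cannot be told apart.

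Among the 10 genes, 1 was called between the labels at an adjusted p under 0.05, against 0.497% of the 16307 genes tested, 81 in all. This gene, Tuba1a, was lower in ONC, as were 0.264% of all genes, while 0.233% were higher. On probes in place of genes, limma called 1 of the 12 probes, that of Tuba1a, against 0.608% of 18599 probes. By direction alone, 6 of the 10 genes were higher and 4 lower in ONC, and 47.4% of all genes were higher. The median log2 fold change of the 10 genes was 0.15 beside -0.01 for all genes. It moved to 0.04 without CTR1, 0.02 without ONC1 and 0.25 without CTR4, and to 0.05 in the 4 channels whose dye is the same in both accounts, 0.07 with median scaling in place of loess, 0.10 on the software's processed signals and 0.08 with the brightest probe of each gene. The ratio had the same direction on all 4 arrays for 3 of the 10, Tubb3, Tuba1a and Mapt, as it did for 39.4% of all genes. The CTR and ONC channels did not overlap for 2 of them, Tubb3 and Tuba1a, against 12.7% of all genes. Unadjusted p was under 0.05 for those 3 genes, as for 18.6% of all genes. Probes differ in how bright they are for the same amount of RNA, so a brighter gene is not read as one with more RNA, and differences are taken between channels of the same gene.

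**Figure D1:**
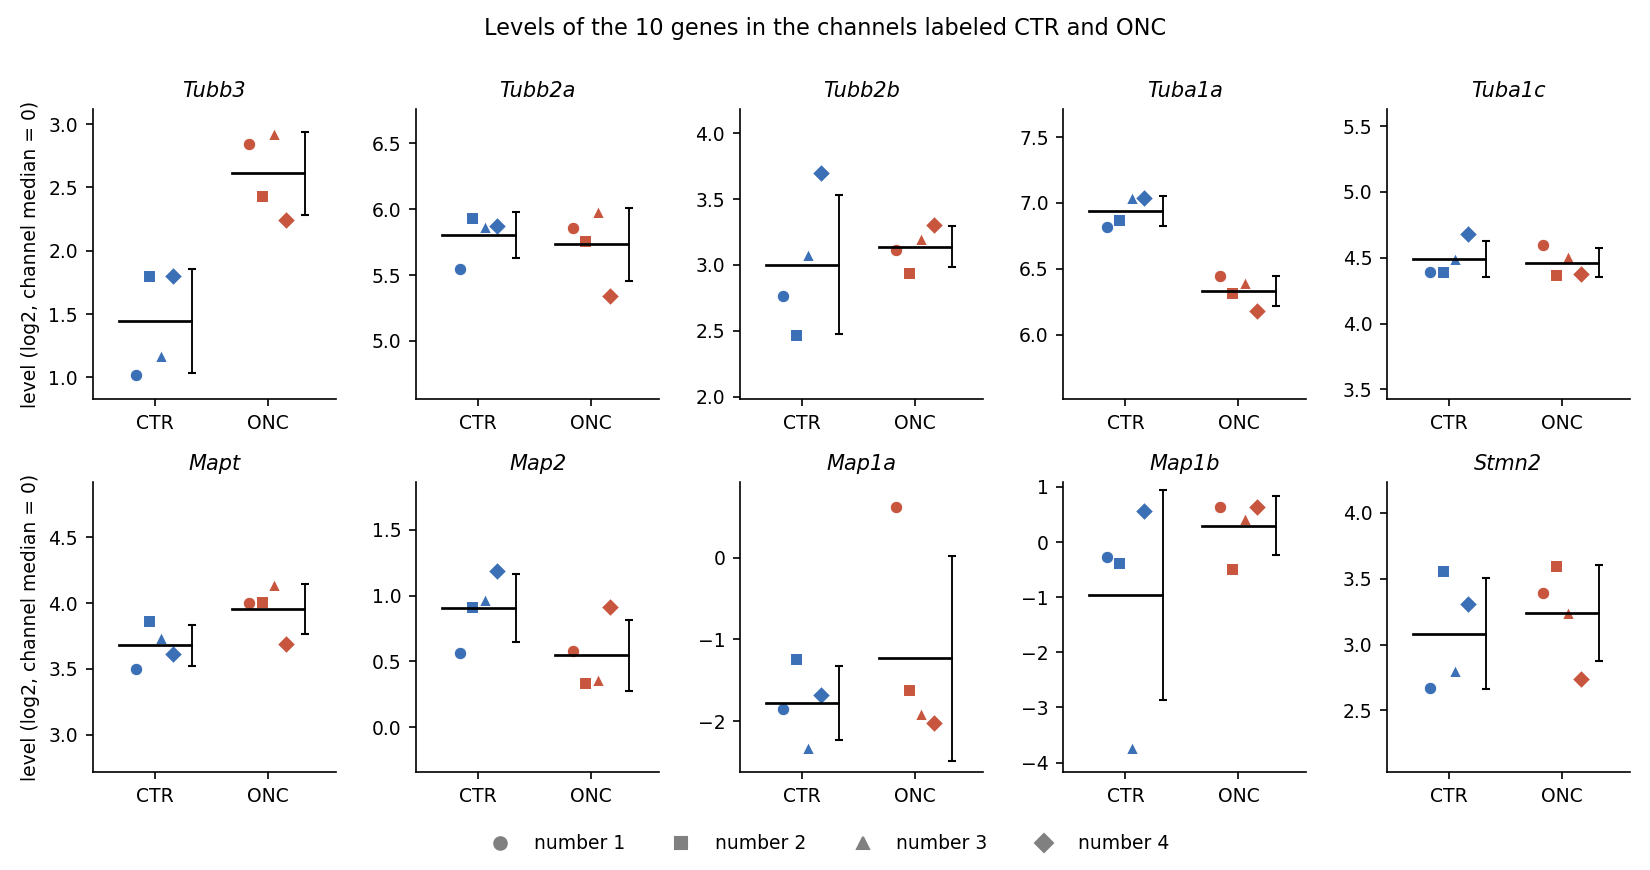
Level of each of the 10 genes in the 8 channels (log2 scale, with the median spot of each channel at 0). Each point is a channel, the shape gives its number, the line is the mean of 4 channels and the bar is 1 SD. Tubb3 and Tuba1a are the genes whose CTR and ONC points do not overlap. The axes differ between panels.

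Of the beta-tubulins, Tubb3 is the neuronal form that marks RGCs in the retina and axons in general. Its level, in log2 units above the median spot, ran over 1.02 (CTR1), 1.17 (CTR3), 1.80 (CTR2) and 1.80 (CTR4) in the sham labels. In the crush labels it ran over 2.24 (ONC4), 2.43 (ONC2), 2.84 (ONC1) and 2.92 (ONC3). All ONC channels lay above all CTR channels, and within each label the channels formed pairs, with CTR2 and CTR4 above CTR1 and CTR3, and ONC1 and ONC3 above ONC2 and ONC4. On the arrays, the log2 ratio of the ONC over the CTR channel was 1.82, 0.63, 1.76 and 0.44 for arrays 1 to 4. By the labels, the log2 fold change was 1.16 ± 0.22 (SE, n = 4 channels per group), a fold of 2.24, with a 95% interval from 0.66 to 1.67 and a limma adjusted p of 0.0575. Tubb3 therefore did not pass. The study gives Tubb3 as lower in ONC, both on its arrays and by qPCR in other animals. That is the opposite of the direction between the labels here.

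The order of the Tubb3 channels differs from that of the median RGC marker. The median marker, as a log2 deviation from its own mean, stood at 1.01 in CTR2 and at -1.39, -0.98 and -0.97 in CTR1, CTR3 and CTR4. In ONC1, ONC2 and ONC3 it stood at 1.04, 1.13 and 1.28, and in ONC4 at -1.18. Sncg had log2 ratios of 2.67, 0.52, 2.67 and -0.17 on arrays 1 to 4, and Pou4f2, a transcription factor of RGCs, had 4.01, 0.48, 3.90 and -0.13. The markers varied on array 2, where Thy1 stood at -0.39. Isl1 had 0.72, 0.58, 0.76 and 0.50, and was the 1 marker of 12 with the same direction on all 4 arrays. Tubb3 thus shared the high ratios of arrays 1 and 3 with Sncg and Pou4f2, at a smaller size. It was higher in ONC on arrays 2 and 4 as well, as Isl1 was. Without CTR2 the Tubb3 log2 fold change was 1.28 (limma adjusted p = 0.0737), and without ONC4 it was 1.29 (adjusted p = 0.0764). The part of RGC content in the Tubb3 result was not tested.

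Tubb3 was called with median scaling in place of loess (log2 fold change 1.12, limma adjusted p = 0.0147), when 3194 of 16307 genes were called. It was also called when loess was followed by Aquantile (1.16, adjusted p = 0.0389), when 412 genes were called, against 81 in the main fit. Over all alternatives the estimate ran from 1.02 to 1.29 and the adjusted p from 0.0147 to 0.384. With the array number as a block, the adjusted p was 0.0507, when 7.69% of all genes were called.

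Tubb2a and Tubb2b are close relatives of each other, and both are abundant in neurons. Levels of Tubb2a by number were 5.55, 5.94, 5.87 and 5.87 for CTR, and 5.86, 5.76, 5.98 and 5.34 for ONC. ONC4 was the lowest and ONC3 the highest, so the labels overlapped fully. Its log2 fold change was -0.07 ± 0.15 (SE, n = 4 per group, limma adjusted p = 0.852). It turned to 0.06 without ONC4 and to 0.01 when only CTR2, CTR4, ONC1 and ONC3 were used, while it was -0.16 without CTR1 and -0.38 ± 0.15 (limma adjusted p = 0.115) with median scaling in place of loess.

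For Tubb2b, levels by number were 2.76, 2.47, 3.08 and 3.70 for CTR, and 3.12, 2.94, 3.20 and 3.30 for ONC. The CTR channels spread over 1.23 log2 units and enclosed the ONC channels, which spread over 0.36. The log2 fold change was 0.14 ± 0.23 (SE, n = 4 per group, limma adjusted p = 0.812), turning to -0.04 without CTR2 and to -0.02 on signals as the scanner software processed them, and rising to 0.37 without CTR4. Neither gene passed the test.

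Among the alpha-tubulins, Tuba1a is the main form of developing and mature neurons. Its single probe stands on 10 spots of each array, of which 8 carry no outlier mark and were averaged. Levels were 6.82 (CTR1), 6.87 (CTR2), 7.04 (CTR3) and 7.04 (CTR4), against 6.44 (ONC1), 6.32 (ONC2), 6.39 (ONC3) and 6.18 (ONC4). Every ONC channel lay below every CTR channel, and each group spanned at most 0.26 log2 units. On the arrays, the log2 ratios of ONC over CTR were -0.38, -0.55, -0.65 and -0.86. Tuba1a fell by 0.61 ± 0.09 on the log2 scale (SE, n = 4 channels per group), which is 1.53-fold lower, with a 95% interval from -0.82 to -0.40 and a limma adjusted p of 0.0438. The channels that stand apart by their RGC markers did not do so here: CTR2 lay among the CTR channels and ONC4 was the lowest of all.

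The 8 spots of Tuba1a gave like readings on an array. Before normalization, their log2 ratios of ONC over CTR ran from -1.37 to -1.16 on array 1, from -1.47 to -1.16 on array 2, from -1.72 to -1.33 on array 3 and from -2.94 to -2.35 on array 4. The SD over the spots was 0.0793, 0.122, 0.156 and 0.197. These spots share a sequence and an array, and are not replicates of the condition.

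Bright genes as a class were lower in the ONC channels. Of the 100 genes with the highest mean signal, Tuba1a among them, 77 were lower in ONC, their median log2 fold change was -0.18, and 3 of them had a lower value than Tuba1a. With median scaling in place of loess, 99 of these 100 genes were lower, with a median of -0.61, and Tuba1a stood at -1.01. On the software's processed signals, 67 were lower, with a median of -0.09. Since every ONC retina is in Cy3 by the labels, a difference by condition and a difference by dye at high brightness cannot be told apart.

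The call of Tuba1a ended whichever channel was left out. So did most calls: leaving out ONC2 left 38 of 16307 genes called, and leaving out any other channel left 0. Leaving out each of the 8 channels in turn gave log2 fold changes from -0.65 to -0.56 and limma adjusted p from 0.0663 to 0.178, with -0.63 (0.0733) without CTR2 and -0.56 (0.0764) without ONC4. The call also ended with the processed signals (-0.52, limma adjusted p = 0.0763) and with normexp (-0.61, 0.0514), which called 21 and 14 genes in all. It ended too with normexp and no filter on dim spots together (-0.64, 0.182) and in the 4 channels of undisputed dye (-0.54, 0.384), which called 0 genes each. Over all alternatives the adjusted p ran from 0.00839 to 0.384. With the array number as a block, the adjusted p was 0.0313, when 7.69% of all genes were called.

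Tuba1c, an alpha-tubulin found in many tissues, has 2 probes, and the probe with an outlier mark was left out. Levels ran from 4.39 to 4.68 in the CTR channels and from 4.37 to 4.60 in the ONC channels. The labels overlapped, with CTR4 above every ONC channel. The log2 fold change was -0.03 ± 0.10 (SE, n = 4 per group, limma adjusted p = 0.919). Its direction turned under several alternatives, to at most 0.04, and with median scaling in place of loess it was -0.19 ± 0.11 (limma adjusted p = 0.231). Tuba1b, another common alpha-tubulin outside the 10 genes, has a probe whose listed transcripts belong to both Tuba1a and Tuba1b and another listed for Tuba1b alone. The shared probe had a log2 fold change of -0.47 ± 0.31 (SE, n = 4 per group, limma adjusted p = 0.456), with ONC4 at 4.76 and the other channels between 6.17 and 6.43. The other probe stood at -0.04 ± 0.10 (adjusted p = 0.871). Neither Tuba1b probe passed, and the difference between them and the Tuba1a probe was not tested.

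**Figure D2:**
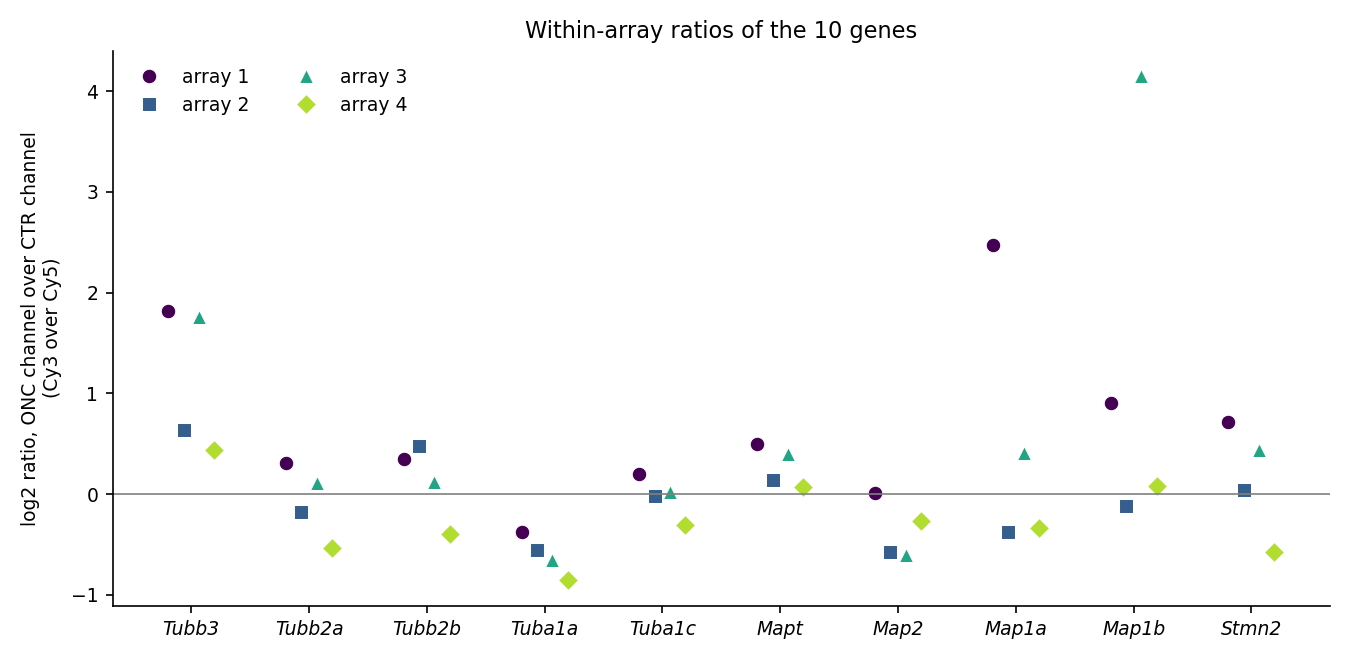
Log2 ratio of the ONC over the CTR channel on each of the 4 arrays for the 10 genes, after loess. Each point is an array. All 4 points lie above 0 for Tubb3 and Mapt and below 0 for Tuba1a, and single points stand far off for Map1a (2.47 on array 1) and Map1b (4.15 on array 3).

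A probe is shown for Mapt and for Stmn2, the genes read by 2 probes, so that the stretch it reads can be seen. That of Mapt lies at chr10:93504770-93504829 (plus strand) and that of Stmn2 at chr2:95290726-95290785 (minus strand), on rn4 as the array design lists them. The letters are 5′ to 3′ and none is in capitals, since no part of a probe is singled out.
Mapt probe A_64_P034774: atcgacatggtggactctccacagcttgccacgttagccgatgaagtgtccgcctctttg
Stmn2 probe A_64_P127855: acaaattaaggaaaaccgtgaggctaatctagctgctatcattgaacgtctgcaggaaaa

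Of the microtubule-associated proteins, Mapt encodes tau, which binds axonal microtubules. Levels, as the mean of 2 probes, were 3.50 (CTR1), 3.87 (CTR2), 3.73 (CTR3) and 3.61 (CTR4), and 3.998 (ONC1), 4.01 (ONC2), 4.13 (ONC3) and 3.69 (ONC4). ONC1, ONC2 and ONC3 lay above all CTR channels, whereas ONC4 lay among them. The log2 ratios were 0.50, 0.14, 0.40 and 0.08 on arrays 1 to 4, all above 0. By the labels, the log2 fold change was 0.28 ± 0.12 (SE, n = 4 per group, limma adjusted p = 0.261), and Mapt did not pass.

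The probes of Mapt differed in size. A_64_P034774, the probe shown, had a log2 fold change of 0.08 ± 0.11 (SE, n = 4 per group, limma adjusted p = 0.743), with 7 of its 8 channels between 3.81 and 4.15 and the highest, ONC3, at 4.16. The other probe, A_64_P034769, stood at chr10:93508676-93508735 (plus strand), further toward the 3′ end of the transcript, and had 0.48 ± 0.16 (adjusted p = 0.163). Its log2 ratios were 0.85, 0.22, 0.76 and 0.08 on arrays 1 to 4, higher on arrays 1 and 3 than on arrays 2 and 4, as for Tubb3, Sncg and Pou4f2. The difference between the 2 probes was not tested.

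Map2, a protein of dendrites and cell bodies, had levels by number of 0.56, 0.91, 0.97 and 1.18 for CTR, and of 0.58, 0.34, 0.36 and 0.92 for ONC. ONC2 and ONC3 lay below all CTR channels, and ONC1 and ONC4 lay within their range. The ONC channel was the higher on 1 of the 4 arrays, and the log2 fold change was -0.36 ± 0.17 (SE, n = 4 per group, limma adjusted p = 0.291). Its direction was lower in ONC under every alternative run, from -0.58 to -0.21, and none of them called it.

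Map1a and Map1b encode large proteins that bind microtubules, Map1a mostly in mature dendrites and Map1b in growing axons. Levels of Map1a by number were -1.85, -1.24, -2.33 and -1.68 for CTR, and 0.62, -1.61, -1.91 and -2.02 for ONC. ONC1 stood apart from the other 7 channels, which overlapped. The log2 fold change of 0.54 ± 0.54 (SE, n = 4 per group, limma adjusted p = 0.649) became -0.08 without ONC1, so the direction rested on that channel.

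For Map1b, they were -0.28, -0.37, -3.74 and 0.56 for CTR, and 0.63, -0.49, 0.42 and 0.64 for ONC. CTR3 alone was low, and the other channels overlapped. In CTR3 the foreground was 2.92 times the background, the lowest reading among the 10 genes. The log2 fold change was 1.25 ± 0.81 (SE, n = 4 per group, limma adjusted p = 0.452) and 0.33 without CTR3. Each of these genes has a single spot on an array, and neither passed.

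Stmn2 binds free tubulin pairs and is known for its part in axon growth and upkeep. Its levels, as the mean of 2 probes, by number were 2.67, 3.56, 2.80 and 3.31 for CTR, and 3.39, 3.59, 3.24 and 2.74 for ONC. CTR2 and ONC2 were the highest and CTR1 and ONC4 the lowest, so the labels overlapped. The log2 fold change was 0.16 ± 0.24 (SE, n = 4 per group, limma adjusted p = 0.783). It was 0.31 without CTR2, 0.32 without ONC4, 0.02 without CTR1 and -0.12 in the 4 channels of undisputed dye. The probe shown had 0.09 ± 0.26 (adjusted p = 0.897) and the other, at chr2:95285271-95285330 (minus strand), had 0.23 ± 0.24 (adjusted p = 0.664), and neither was set apart from 0.

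**Figure D3:**
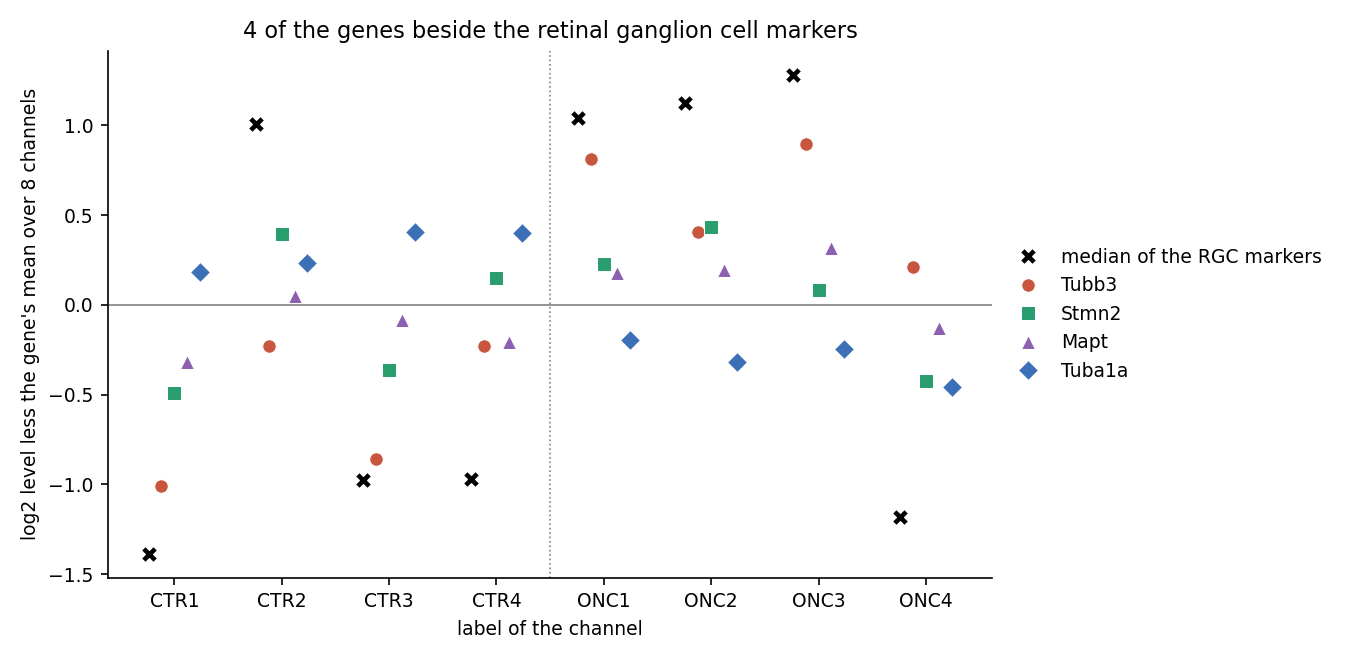
Log2 level in each channel less the gene's mean over the 8 channels, for Tubb3, Stmn2, Mapt and Tuba1a, beside the median over the 12 RGC markers. The median marker is high in CTR2, ONC1, ONC2 and ONC3 and low in the other channels. Stmn2 is above its mean in CTR2 and below it in ONC4, as the median marker is, but above it in CTR4, where the median marker is low. Tubb3 is above its mean in all 4 ONC channels and Tuba1a below.

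**Figure D4:**
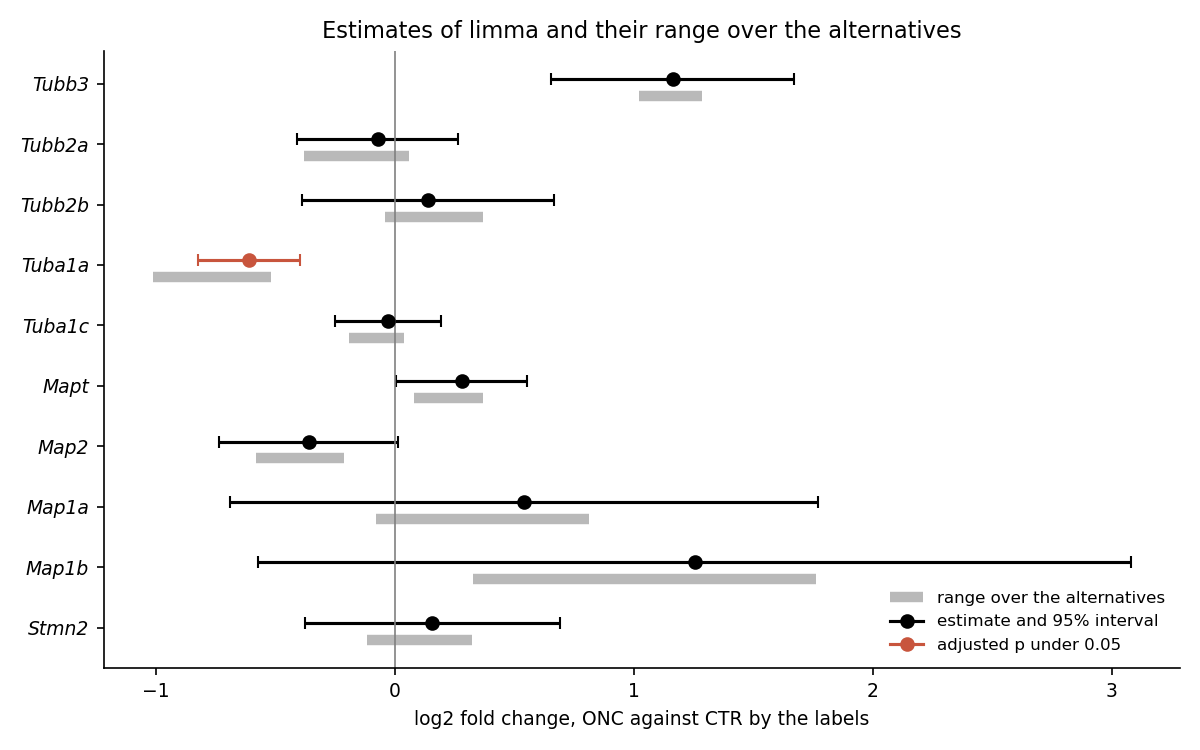
Log2 fold change of ONC against CTR by the labels for the 10 genes, with the 95% interval of limma (n = 4 channels per group) and, in gray, the range of the estimate over the alternatives. Tuba1a (-0.61) is the gene with an adjusted p under 0.05. The gray ranges of Tubb2a, Tubb2b, Tuba1c, Map1a and Stmn2 cross 0.

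The methods measure the variability of a gene among the 4 retinas of a group as the relative expression variability (REV, in percent). Tuba1a had a REV of 11.9 in CTR and 9.76 in ONC. Its gene expression stability (GES), the percentile of all genes in order of falling REV, was 88.3 in CTR and 87.6 in ONC. The equation scales the spread by a coefficient that falls with the number of spots, 8 for Tuba1a and 1 or 2 for the other 9 members, so its REV and GES are not ranked against theirs. Tubb3 had a REV of 59.7 in CTR and 47.6 in ONC, with GES of 6.74 and 12.4, among the less stable genes in both groups. Tubb2b went from a REV of 82.8 in CTR to 22.4 in ONC, a reading that rests on the spread of the CTR channels. The highest values were 228 for Map1a in ONC and 156 for Map1b in CTR, each with a single channel standing apart. Over the 10 genes the median REV was 39.0 in CTR and 35.5 in ONC, beside 25.1 and 21.7 over all genes. No test was made of these differences.

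Under the methods' own criterion, a gene has to pass the methods' t-test and also exceed a fold threshold that grows with its REV. Tubb3 and Tuba1a met it, 2 of the 10 genes, against 3.13% of all genes. The fold of Tubb3 was 2.21, higher in ONC, over a threshold of 2.08, and that of Tuba1a was 1.53, lower in ONC, over a threshold of 1.22, which depends on its number of spots through the REV. After Benjamini-Hochberg adjustment, the methods' t-test called 0 of 16307 genes, of which 2682 passed before it.

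The genes whose pattern over the 8 channels lay nearest were sought for the 4 members that span 1 log2 unit or more. Likeness was the root mean square difference of log2 values, each gene less its mean. Nearest to Tubb3 were Satb1 (0.250), Capn1 (0.268) and Sertm1 (0.277). Nearest to Tubb2b were Fgr (0.0954), Mdfic (0.0993) and Kcnj8 (0.0998). The nearest to Map1a (0.390, 0.448 and 0.458) carry a probe or transcript identifier in place of a symbol, and the nearest to Map1b were a transcript without a symbol (0.567), Mmp24 (0.754) and a probe without a symbol (0.758). On this measure the members themselves vary by 0.665 (Tubb3), 0.343 (Tubb2b), 0.856 (Map1a) and 1.36 (Map1b), and the distances are a sizable part of that for all 4.

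Promoters are shown for Tubb3 and Tuba1a, the members whose groups did not overlap and whose directions were opposite. Sequences are from RefSeq on GRCr8, from 250 bases before to 50 after the start of the gene, and 8 of the 10 genes matched an entry, without Mapt and Stmn2. That of Tubb3 lies at chr19:68365437-68365736 (plus strand) and that of Tuba1a at chr7:131995770-131996069 (minus strand). Capitals mark matches on either strand to the motif GGGCGG, to the motif CCAAT and to the motif TATANA, where N is any base, and matches that overlap run together.
Tubb3 promoter: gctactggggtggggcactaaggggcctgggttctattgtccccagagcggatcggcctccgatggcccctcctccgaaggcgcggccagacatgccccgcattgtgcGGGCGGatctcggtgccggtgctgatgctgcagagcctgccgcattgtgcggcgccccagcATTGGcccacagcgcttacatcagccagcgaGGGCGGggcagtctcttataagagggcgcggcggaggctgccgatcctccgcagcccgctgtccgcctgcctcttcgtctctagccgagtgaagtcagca
Tuba1a promoter: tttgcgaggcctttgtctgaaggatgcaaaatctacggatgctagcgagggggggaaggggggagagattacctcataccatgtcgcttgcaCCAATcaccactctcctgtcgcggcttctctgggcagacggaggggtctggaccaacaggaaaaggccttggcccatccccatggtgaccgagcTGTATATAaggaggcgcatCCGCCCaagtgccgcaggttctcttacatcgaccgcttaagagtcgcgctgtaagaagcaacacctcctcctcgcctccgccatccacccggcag

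GGGCGG matched 2 times in the Tubb3 promoter and 1 time in that of Tuba1a, CCAAT matched 1 time in each, and TATANA matched 0 times in that of Tubb3 and 2 times, overlapping, in that of Tuba1a. Each motif was found in 5 of the 8 promoters. Of 33469 promoters of the same length, 33.1% hold GGGCGG, 37.5% hold CCAAT and 26.5% hold TATANA. A match describes the letters in the window and nothing further.

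Other genes of the microtubule system were read by list, and none of them was called by limma. Of 15 other tubulins, 12 passed the spot filter, 6 higher and 6 lower in ONC. Their median log2 fold change was -0.02, which turned to 0.18 when channels were only scaled to their median. Tubb4a, a beta-tubulin of myelinating glia and neurons, stood at 0.50 ± 0.25 (SE, n = 4 per group, limma adjusted p = 0.338) and Tubg2, a gamma-tubulin, at 0.29 ± 0.11 (adjusted p = 0.225). Of 30 other microtubule-associated proteins and stathmins, 24 passed, 14 higher and 10 lower, with a median of 0.05. Map1s, a short relative of Map1a and Map1b, stood at -0.44 ± 0.11 (adjusted p = 0.0837), and Stmn4, a neuronal stathmin, at -0.60 ± 0.21 (adjusted p = 0.183). Clasp2, which binds the growing ends of microtubules, stood at 0.72 ± 0.35 (adjusted p = 0.311). For Clasp2, CTR3 stood apart at -0.81, with the other CTR channels between 0.42 and 0.97. Its estimate ran from 0.32 to 0.92 over the alternatives. The CRMP family, which binds tubulin pairs in growing axons, had 5 of 5 genes measured, 3 higher and 2 lower, with a median of 0.01, or -0.14 with the processed signals.

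Enzymes and carriers of microtubules gave no call either. Of 7 tubulin folding cofactors, 6 passed, 2 higher and 4 lower, with a median of -0.07, and Arl2, a small GTPase of that pathway, stood at -0.49 ± 0.14 (SE, n = 4 per group, limma adjusted p = 0.115). Of 26 tubulin modifying enzymes, 12 passed, 5 higher and 7 lower, with a median of -0.01, or 0.16 when channels were only scaled. Sirt2, which deacetylates alpha-tubulin, stood at -0.48 ± 0.17 (adjusted p = 0.170). Of 7 severing enzymes, 5 passed, 1 higher and 4 lower, with a median of -0.09, or 0.08 when channels were only scaled.

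Of 25 kinesin and dynein motors and their partners, 19 passed, 11 higher and 8 lower, with a median of 0.08. Kifap3, the adaptor of kinesin-2, stood at 0.65 ± 0.13 (SE, n = 4 per group, limma adjusted p = 0.0629) and Klc1, a kinesin light chain, at -0.47 ± 0.12 (adjusted p = 0.0925). Of 16 kinases and phosphatases that act on tau, 14 passed, 10 higher and 4 lower, with a median of 0.12. Ppp3ca, the catalytic subunit of calcineurin, stood at 0.39 ± 0.08 (adjusted p = 0.0623) and Gsk3b, a tau kinase, at 0.29 ± 0.12 (adjusted p = 0.236). With the array number as a block, the genes that limma called in these lists included Tubb4a, Map1s, Stmn4, Arl2, Sirt2, Kifap3, Klc1 and Ppp3ca.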

How the data were processed

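RNA of 8 retinas, 4 CTR and 4 ONC, was read on 4 arrays. The authors deposited spot files as the scanner software wrote them (Feature Extraction 12.0.3.1 per the file headers, 11.1.19.1 per the labels), with brightness of foreground and local background, and their unit is intensity. Of 42877 spots per array that are not controls, a spot was kept if it had no outlier mark and reached 2 times its background in all 8 channels, giving 27371 spots, 18599 probes and 16307 genes. After subtraction of background and loess within arrays (span 0.3), channel medians were set to 0. Log2 values were averaged over spots into probes and over probes into genes.

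CTR and ONC were compared by limma 3.58.1 in R 4.3.3 (two-sided, without a block, as the methods' test is unpaired), with Benjamini-Hochberg adjustment over all genes and calls at 0.05. Adjusted p values are from limma, and the fit was tested on simulated data. Over genes less their group means, channels with the same number, on 1 array, were correlated at 0.149, 0.549, 0.401 and 0.487. The main fit, without a block, does not take this correlation into account. REV, GES and the fold threshold follow the methods' equations.

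The alternatives were median scaling without loess, the processed signals, Aquantile, normexp (offset 50), normexp and no dim filter together, spots marked well above background, the brightest probe of a gene, the block, the 4 channels of undisputed dye, the methods' test and leaving out each channel. The members and the lists of genes were chosen with earlier results of these data known. Genes named are the members and, by a rule, in each list those called and, among those with the same direction on all 4 arrays, the 2 highest and 2 lowest, with the 3 nearest in pattern to a member spanning 1 log2 unit. The probes of Tuba1b and the RGC markers Sncg, Pou4f2 and Thy1 are named beside this rule, chosen after their values were seen. Marker lists were of RGCs, amacrine, horizontal and bipolar cells, photoreceptors, Müller glia, astrocytes, microglia, oligodendrocytes, endothelium, pigment epithelium, lens and blood.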

Additional observations from a re-analysis of the deposited data

Results flagged for a closer look

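Of 32 sets of 4 channels with the same label that were looked at, 3 held a channel far from the other 3 (a gap to the nearest channel past Dixon's 95% limit for its share of the range), which chance gives in about 1 in 20 sets. Map1a in the channel labeled ONC1 stood at 0.62, with the other ONC channels between -2.02 and -1.61. The Mapt probe A_64_P034774 stood at 3.87 in the channel labeled ONC4, with the other ONC channels between 4.14 and 4.16, and CTR4 on the same array was lower, at 3.81. The median deviation of the RGC markers was -1.18 in the channel labeled ONC4, with the other ONC channels between 1.04 and 1.28.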

How the results depend on the processing

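Limma called 81 genes, 46.9% of them higher in ONC, 113 probes and 1 member, Tuba1a. With median scaling in place of loess it called 3194 genes (71.0% higher), 3532 probes and 2 members, Tubb3 and Tuba1a. The processed signals gave 21 genes, 74 probes and 0 members (2 at an unadjusted p under 0.05), Aquantile 412 genes, 495 probes and 2 members, and normexp 14 genes (71.4% higher), 5 probes and 0 members (2 at an unadjusted p under 0.05). With normexp and no filter on dim spots together, limma called 0 genes, 0 probes and 0 members (1957, 2304 and 2 at an unadjusted p under 0.05), and in the 4 channels of undisputed dye also 0, 0 and 0 (1961, 2283 and 3). Spots well above background gave 123 genes, the brightest probe 124, the replicate block 1254 genes and 1522 probes, and the methods' test 510 genes and 2 members. Leaving out each channel gave 0 to 38 genes (2085 to 3252 at an unadjusted p under 0.05), 0 to 48 probes and 0 to 0 members, with 38 genes (76.3% higher) and 48 probes without ONC2 and 0 without any other channel. The cause was not tested.

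The direction of 11 of 170 estimates for single members turned. With normexp and no dim filter together, Tuba1c was 0.0033. With the processed signals Tubb2b was -0.019. In the 4 channels of undisputed dye Stmn2 was -0.12, Tuba1c 0.017 and Tubb2a 0.011. Leaving out each channel gave Map1a from -0.076 (without ONC1) to 0.80, Tubb2b from -0.040 (without CTR2) to 0.37, Tubb2a from -0.16 to 0.060 (without ONC4) and Tuba1c from -0.072 to 0.038 (without CTR4), with 0.0040 without ONC2 and 0.0032 without ONC4. The other estimates kept their direction, 12 losing a call, all for Tuba1a, and 2 gaining one, both for Tubb3. REV moved beyond the spread in 2 of 120 values, Tuba1c in CTR (12.2) and Tubb2b in ONC (4.55), both with normexp and no dim filter together. The cause was not tested. The alternatives for probes and REV were chosen after seeing the data. Signal over background limits Map1b most, at 2.92 in CTR3.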

Other observations

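Marker lists of the other retinal cell types had no gene called by limma between the labels. The median log2 fold change was 0.02 for 10 amacrine cell markers (0.10 with median scaling and -0.07 with the processed signals), -0.05 for 6 of horizontal cells (-0.01 with median scaling) and 0.18 for 9 of bipolar cells, of which 7 were higher in ONC. Of 10 photoreceptor markers, 8 were lower, with a median of -0.29. The median was -0.10 for 7 markers of Müller glia, where it turned to 0.00 with the processed signals, -0.31 for 4 of astrocytes (-0.03 with median scaling), and -0.32 for 10 of microglia and macrophages, of which 9 were lower in ONC. The median microglial marker, as a log2 deviation from its own mean, was high in CTR3 (0.57) and CTR4 (0.53) only, with 0.06 in CTR1, -0.41 in CTR2 and -0.32 to -0.06 in the ONC channels.

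Lists of tissue around the retina were read in the same way. The median was 0.06 for 6 oligodendrocyte markers (0.59 with median scaling and -0.05 with the processed signals), 0.04 for 6 of endothelium and pericytes (-0.03 with median scaling), 0.19 for 4 of pigment epithelium and 0.15 for 2 of blood (0.36 with median scaling). Of 9 lens genes, 8 were lower in ONC, with a median of -0.39. The median lens gene stood at 1.20 in CTR2, between -0.31 and 0.07 in the other CTR channels and between -0.64 and 0.39 in the ONC channels, so CTR2 stood apart and the direction without it was not tested. Cryaa, a lens crystallin, stood at -0.95 ± 0.29 (SE, n = 4 per group, limma adjusted p = 0.134).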
